A study of Mus musculus with 24 samples.

Results

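The genes described here encode the matrix metalloproteinases (MMPs), the ADAMTS proteinases, their ADAMTS-like relatives (ADAMTSL) and the tissue inhibitors of metalloproteinases (TIMPs). They were chosen by symbol, as every gene of the table named Mmp, Adamts, Adamtsl or Timp with a number. This gave 51 of 49315 genes, made up of 23 MMP, 19 ADAMTS, 5 ADAMTSL and 4 TIMP genes. Their RNA was measured by sequencing in MS03 cells, an immortalized mouse Schwann cell line with both copies of Nf2 lost. MS03 came from a line of Nf2 flox/flox origin that was infected with Cre, so every group, control included, carries the Nf2 deletion, and all results belong to this 1 line in culture. Cells were kept for 24 hours in DMSO, the vehicle, or in 1 of 7 compounds directed at focal adhesion kinase (FAK). Defactinib, VS-4718, GSK2256098 and IN10018, all FAK kinase inhibitors, were used at 1 µM. PROTAC FAK degrader 1 was used at 1 µM, and GSK215 and BSJ-04-0146 at 0.1 µM. These last 3 are PROTACs, molecules that join a ligand of the target to a ligand of an E3 ubiquitin ligase so that the target is degraded. Each of the 8 groups held 3 libraries, labelled as biological replicates. No source used here says that the replicates were separate cultures, so the p-values measure the spread between these libraries. The question addressed is how the RNA levels of these matrix-remodelling genes differ between cells given each compound and cells given DMSO.

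MMPs are zinc-dependent endopeptidases made as inactive precursors, and together they cut most proteins of the extracellular matrix. Some are secreted, and others, the membrane-type MMPs, stay at the cell surface, where they act on the pericellular matrix and activate other MMPs. ADAMTS proteinases are secreted and bind the matrix, and their main known substrates are the large chondroitin sulfate proteoglycans, the procollagens and proteins of the microfibrils. ADAMTSL proteins share the non-catalytic domains of the ADAMTS family but have no proteinase domain. TIMPs bind the active site of these enzymes and block it. In peripheral nerve, MMPs and TIMPs are known for the breakdown and rebuilding of matrix and myelin after injury, and Schwann cells are among their sources.

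The largest genomic group among the members is a run of 10 Mmp genes on mouse chromosome 9, spanning 427 kb (chr9:7272514-7699585, GRCm38). The stretches before the starts of 8 of them are shown because these promoters share a short sequence that was not found in the other members counted. The searched letters were TGANTCA on either strand, where N is any base. They include the site that AP-1 transcription factors (dimers of Fos and Jun proteins) are known to bind, TGACTCA or TGAGTCA. They are wider than that site, for the members and for all genes alike, and the match of Mmp20 is TGAATCA. RefSeq promoters (GRCm38.p6, 250 bases before to 50 bases after each start) were found for 36 of the 51 members, and 8 of these 36 (22.2%) held the letters, against 8.97% of all 27025 genes with an entry, where a gene counts if any of its starts has a match. Counted by entry the shares are 20.5% of the 39 entries of members and 7.81% of all 32851. Among the 20 tested members with an entry, 2 held the letters (10.0%), a share near that of all genes. All 8 lie in the chromosome 9 run, where 8 of 10 genes held the letters, and none of the other 26 members counted did. Mmp8 and Mmp27 are the 2 genes of the run without a match. Mmp12 and Mmp7 have more than 1 start, and the letters stood before only 1 of them. For each gene the 110 bases ending just before the start are printed 5′ to 3′ on the gene's own strand, with the match in capitals.

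Mmp13 (chr9:7272404-7272513, plus strand): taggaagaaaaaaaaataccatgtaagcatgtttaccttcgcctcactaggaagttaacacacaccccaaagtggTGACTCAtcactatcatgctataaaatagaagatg
Mmp12 (chr9:7347264-7347373, plus strand): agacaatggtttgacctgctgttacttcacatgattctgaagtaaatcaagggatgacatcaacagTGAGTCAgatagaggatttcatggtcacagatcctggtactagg
Mmp1b (chr9:7388027-7388136, minus strand): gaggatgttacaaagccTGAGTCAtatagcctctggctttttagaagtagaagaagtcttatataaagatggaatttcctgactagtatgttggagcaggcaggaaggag
Mmp3 (chr9:7445712-7445821, plus strand): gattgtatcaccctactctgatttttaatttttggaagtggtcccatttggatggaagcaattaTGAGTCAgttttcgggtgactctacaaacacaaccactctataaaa
Mmp1a (chr9:7464031-7464140, plus strand): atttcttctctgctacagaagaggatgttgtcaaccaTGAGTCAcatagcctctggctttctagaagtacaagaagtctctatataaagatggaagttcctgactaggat
Mmp10 (chr9:7502232-7502341, plus strand): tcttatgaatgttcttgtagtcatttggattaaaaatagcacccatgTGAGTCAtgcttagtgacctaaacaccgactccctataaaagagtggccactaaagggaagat
Mmp20 (chr9:7628121-7628230, plus strand): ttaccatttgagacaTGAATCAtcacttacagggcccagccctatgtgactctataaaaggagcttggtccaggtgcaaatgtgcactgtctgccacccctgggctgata
Mmp7 (chr9:7691980-7692089, plus strand): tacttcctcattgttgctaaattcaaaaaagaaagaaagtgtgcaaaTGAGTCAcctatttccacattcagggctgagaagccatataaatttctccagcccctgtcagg

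Position -1 is the base just before the start, and the match began at position -35 for Mmp13, -44 for Mmp12, -93 for Mmp1b, -46 for Mmp3, -73 for Mmp1a, -63 for Mmp10, -95 for Mmp20 and -63 for Mmp7. The matches therefore lay within 100 bases of the start in these 8 genes. A match is a description of letters, not of a bound site. The letters GGAATG, which TEAD factors are known to bind, were in 2 of the 36 member promoters (5.56%, those of Timp1 and Adamts13), against 16.6% of all genes with an entry. Of the 10 genes of the run, only Mmp3 and Mmp10 had enough counts to be tested. The highest count of any library was 0 for Mmp7, Mmp20 and Mmp27, and 1 to 7 for Mmp8, Mmp13, Mmp1a, Mmp1b and Mmp12. Most of the genes that carry the letters thus had next to no RNA in these libraries. Mmp1a and Mmp1b are close copies of each other, and reads from them may be split between them.

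Of the 51 members, 32 passed the filter on low counts (13 MMP, 12 ADAMTS, 4 ADAMTSL and 3 TIMP genes). A further 15 had a few counts and fell below it, with at most 12 counts in any library, and 4 (Mmp7, Mmp20, Mmp27 and Adamts3) had no count in any of the 24 libraries. In all, 4 of the tested genes, Adamtsl1, Adamts17, Mmp3 and Mmp25, would not have passed on the 3 DMSO libraries alone.

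Levels between genes were compared per length, as CPM (counts scaled to a common library total) divided by the kilobases of each gene's exons, averaged over the 3 DMSO libraries. Timp1, a secreted inhibitor of most MMPs, was highest at 95.1 ± 2.18 CPM per kb (SD, n = 3). Timp2, an inhibitor that also takes part in the activation of the MMP2 precursor, followed at 63.8 ± 2.51 CPM per kb. The most abundant proteinase was Mmp14, the membrane-type MMP that activates the MMP2 precursor, at 38.4 ± 0.713 CPM per kb. Next came Adamts14 at 23.8 ± 0.519, Adamts1 at 14.5 ± 0.310 and Adamts7 at 10.4 ± 0.499 CPM per kb, each without overlap with its neighbours in this order. Mmp11, Timp3 and Adamts4 stood at 8.30 ± 0.0725, 8.26 ± 0.295 and 7.87 ± 0.332 CPM per kb, and their libraries overlapped in that order. Mmp2, the gelatinase that Mmp14 and Timp2 are known to activate, was lower, at 2.52 ± 0.285 CPM per kb. In DMSO, then, the inhibitor genes Timp1 and Timp2 stood above every proteinase gene of the families in RNA per length.

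Total counts were 14472462 to 27449516 per library and were lower in the PROTAC groups, at 14472462 to 21588406 over these 9 libraries. Pairs of replicates differed by more than counting error in all 24 pairs, so no library was a copy of another. Nf2 had 2360 to 5066 counts per library and Ptk2, which encodes FAK, 1182 to 2537, and counts per gene show neither a deleted exon nor a degraded protein. Of 12 Schwann cell marker genes, 7 were above 1 CPM in each group, while Egr2, S100b, Gap43 and Gfap averaged at most 0.190 CPM in DMSO. The 12 genes together came to 53.3 to 56.7 CPM in DMSO, 76.8 to 82.7 with defactinib, 116 to 129.7 with VS-4718, 76.5 to 82.3 with GSK2256098, 52.5 to 56.4 with IN10018, 40.1 to 42.4 with PROTAC FAK degrader 1, 239.7 to 245.8 with GSK215 and 212 to 232 with BSJ-04-0146. Of the 10 tested Schwann cell markers, 9 were higher with GSK215 (against 27.4% of all genes), 9 with BSJ-04-0146 (27.7%), 7 with VS-4718 (20.4%), 6 with GSK2256098 (6.36%) and 5 with defactinib (11.4%), and none was lower with these compounds. With PROTAC FAK degrader 1, 2 were higher and 3 lower (34.1% and 32.7% of all genes), and with IN10018 1 was lower (6.85%) and none higher. The 7 fibroblast markers summed to 2075 to 2130 CPM in DMSO, 1913 to 2268 over the kinase inhibitor groups, 1311 to 1328 with PROTAC FAK degrader 1, 2286 to 2360.0 with GSK215 and 1843 to 1931 with BSJ-04-0146, mostly from collagens, while Dcn and Lum were at 0 in DMSO. Of the 5 tested fibroblast markers, 4 were higher and 1 lower with GSK215 (27.4% and 27.2% of all genes). BSJ-04-0146 gave 2 and 2 (27.7% and 26.9%), and PROTAC FAK degrader 1 gave 0 and 5 (34.1% and 32.7%). Defactinib gave 2 and 0 (11.4% and 11.0%), GSK2256098 2 and 0 (6.36% and 6.09%), VS-4718 2 and 1 (20.4% and 18.9%) and IN10018 0 and 1 (6.44% and 6.85%). Of 8 macrophage markers only Cd68 was above 1 CPM, and their sum was 4.07 to 4.49 CPM in DMSO, 4.20 to 6.52 over the kinase inhibitor groups, 11.8 to 12.6 with PROTAC FAK degrader 1, 6.68 to 8.27 with GSK215 and 8.07 to 9.99 with BSJ-04-0146. Cd68, a lysosomal membrane protein gene, averaged 3.35 CPM in DMSO and 10.9 with PROTAC FAK degrader 1, where 34.1% of all genes were higher. Of the other tested macrophage markers, Cx3cr1 was higher there and Csf1r, at 0.444 and 0.288 CPM, did not pass. None of 5 endothelial markers was above 1 CPM. Of 5 neuron markers only Tubb3 was, at 2.79 CPM in DMSO, and it was higher with GSK215 (4.57 CPM), BSJ-04-0146 (4.35 CPM) and VS-4718 (4.28 CPM). In bulk RNA, fewer cells of a kind and less RNA per cell cannot be told apart, and the part of these shifts in the results was not tested.

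Each compound was compared with DMSO in 1 edgeR quasi-likelihood model of all 24 libraries, with p-values adjusted over 16070 genes and a threshold of 0.05. The 7 comparisons share the same 3 DMSO libraries. GSK215 moved the most members. Of the 32 tested, 28 were higher and 2 (Adamts1 and Timp1) lower than in DMSO (93.8% of the members, against 54.7% of all genes tested). By direction, 87.5% of the members were higher, against 27.4% of all genes, and 6.25% were lower, against 27.2%. The median member stood at a log2 fold change of 0.84, where the median of all genes was 0.021. In total 12 members were at least 2-fold higher, which is 37.5% of the members, against 7.12% of all genes. BSJ-04-0146 gave 21 higher and 3 lower members (75% of the members, against 54.6% of all genes tested). For it, 65.6% of the members were higher, against 27.7% of all genes, and 9.38% were lower, against 26.9%, and 8 were at least 2-fold higher (25% of the members, against 7.33% of all genes).

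The picture was mixed for PROTAC FAK degrader 1. With it 10 members were higher and 15 lower than in DMSO (78.1% of the members, against 66.8% of all genes tested). In this comparison 31.2% of the members were higher, against 34.1% of all genes, and 46.9% were lower, against 32.7%, and the median member stood at -0.24. Past 2-fold, 4 members were higher and 8 lower (37.5% of the members, against 14.3% of all genes). One of these 8, Adamts17, had no count in the 3 treated libraries and 7 counts in all over the 3 DMSO libraries, and its call ended without any 1 of the treated libraries, without DMSO replicate 2 and in other alternatives (adjusted p up to 0.513).

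Among the kinase inhibitors VS-4718 moved the most members, with 16 higher and 4 lower (62.5% of the members, against 39.2% of all genes tested). By direction 50% of the members were higher, against 20.4% of all genes, and 12.5% were lower, against 18.9%, and the 3 that were at least 2-fold higher (Adamts4, Adamts5 and Mmp17) are 9.38% of the members, against 2.06% of all genes. Defactinib raised 13 members and lowered none (40.6% of the members, against 22.4% of all genes tested). Here 40.6% of the members were higher, against 11.4% of all genes, and 0% were lower, against 11.0%, and 1 member, Mmp15, was at least 2-fold higher (3.12% of the members, against 0.585% of all genes). GSK2256098 raised 12 and lowered none (37.5% of the members, against 12.5% of all genes tested). With this inhibitor 37.5% of the members were higher, against 6.36% of all genes, and 0% were lower, against 6.09%, and none reached 2-fold (0% of the members, against 0.212% of all genes). IN10018 gave 4 lower members, Adamts1, Mmp14, Mmp16 and Timp3 (12.5% of the members, against 13.3% of all genes tested). For IN10018 0% of the members were higher, against 6.44% of all genes, and 12.5% were lower, against 6.85%, none reached 2-fold (0% of the members, against 0.174% of all genes), and the share called is near that of all genes. The count of 4 for IN10018 fell to 2 without DMSO replicate 3, to 1 without IN10018 replicate 2 and to 2 without IN10018 replicate 3. The counts of 0 in these comparisons come from edgeR. At an unadjusted p under 0.05 they were 0 lower for defactinib, 0 lower for GSK2256098 and 6 higher for IN10018, and DESeq2 and limma-trend also gave 0 in each case.

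Restricted to the 28 members that also passed the filter in DMSO alone, the higher and lower counts were 25 and 2 (GSK215), 20 and 3 (BSJ-04-0146), 9 and 14 (PROTAC FAK degrader 1), 16 and 4 (VS-4718), 13 and 0 (defactinib), 12 and 0 (GSK2256098), 0 and 4 (IN10018). The shares of all genes higher or lower under that filter are not given here, so these counts are only a description. At least 2-fold changes in these 28 numbered 9 higher with GSK215 (32.1%, against 4.78% of the 13837 genes that passed the same filter), 7 higher with BSJ-04-0146 (25%, against 5.24%), and 3 higher and 7 lower with PROTAC FAK degrader 1 (35.7%, against 12.4%). VS-4718 had 3 higher (10.7%, against 1.37%) and defactinib 1 higher (3.57%, against 0.267%). GSK2256098 and IN10018 had 0 (against 0.101% and 0.0795%). The 4 members left out here are Mmp3, Mmp25, Adamts17 and Adamtsl1. Of the 32, 15 were higher than DMSO with some compounds and lower with others (46.9%, against 25.4% of all genes), and none was called in 1 direction with all 7 compounds (0%, against 0.747% of all genes). The plot of fold changes by member and the plot of shares by compound give these patterns.

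**Figure D1:**
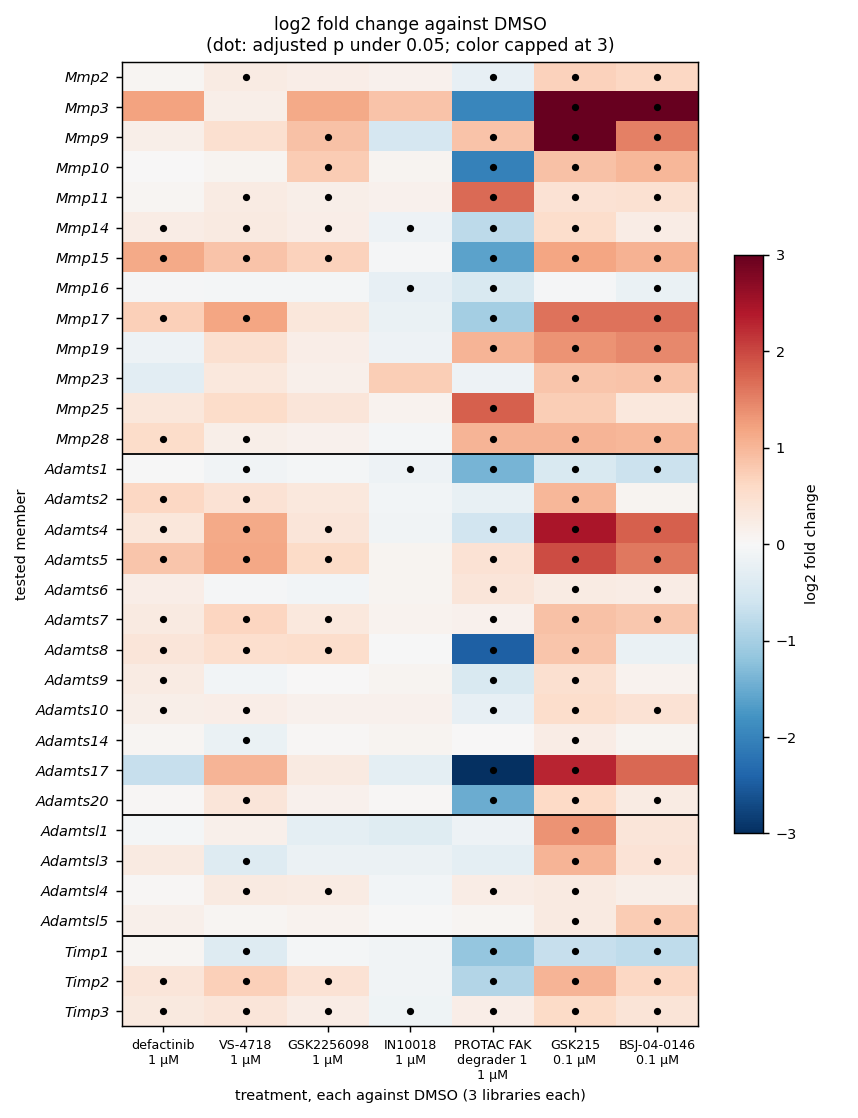
Log2 fold change of each of the 32 tested members (rows, grouped as MMP, ADAMTS, ADAMTSL and TIMP) against DMSO for the 7 compounds (columns), with a dot where the edgeR adjusted p was under 0.05. Red is higher and blue lower than DMSO, and 28 rows are called higher with GSK215, whereas 15 are called lower with PROTAC FAK degrader 1.

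**Figure D2:**
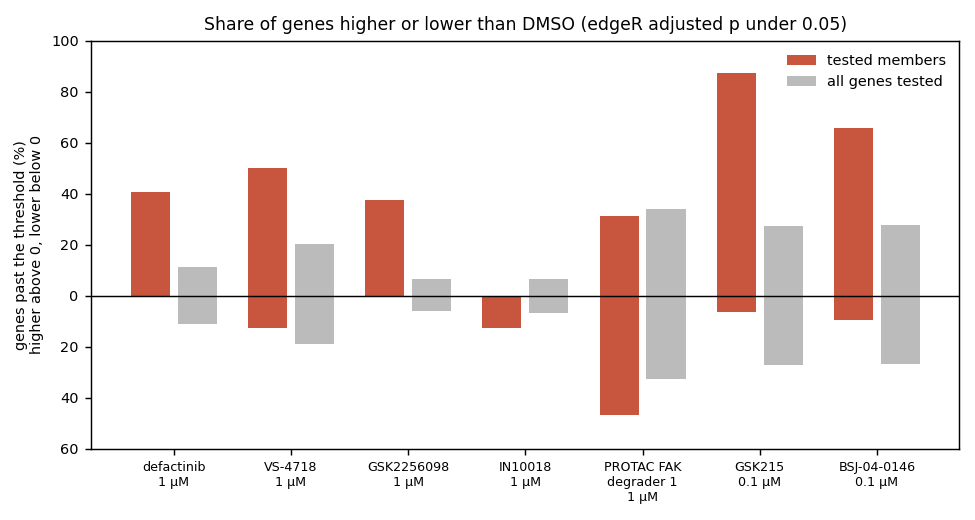
Percent of the 32 tested members (red) and of all 16070 genes (grey) that were higher (above 0) or lower (below 0) than DMSO at an adjusted p under 0.05, for each compound. With GSK215, 87.5% of the members were higher against 27.4% of all genes, and with IN10018 no member was higher.

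The inhibitor genes moved in opposite directions. Timp1 fell with VS-4718 and all 3 PROTACs, Timp2 fell with PROTAC FAK degrader 1 but rose with 5 other compounds, and Timp3 rose with every compound but IN10018. Timp1 (chrX:20870166-20874735, plus strand) had 85.1, 86.1 and 82.3 CPM in the DMSO libraries. It had 40.8, 34.6 and 36.9 CPM with PROTAC FAK degrader 1, 53.8, 49.1 and 54.4 with GSK215, 48.0, 51.0 and 49.3 with BSJ-04-0146 and 68.7, 61.6 and 62.0 with VS-4718. All libraries of these 4 groups lay below all DMSO libraries. The log2 fold changes (± SE) were -1.17 ± 0.053, -0.69 ± 0.051, -0.77 ± 0.052 and -0.40 ± 0.048 (edgeR adjusted p = 9.73e-22 to 1.09e-08). Timp1 had 86.2, 93.8 and 84.4 CPM with defactinib, 83.2, 79.8 and 79.0 with GSK2256098 and 77.8, 75.2 and 82.1 with IN10018, and none of these 3 groups passed the threshold (log2 0.06, -0.07 and -0.11).

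Timp2 (chr11:118301069-118355740, minus strand) had 239.9, 247 and 259 CPM in DMSO. Its highest level was with GSK215, at 506, 493 and 502 CPM, with no overlap (log2 1.01 ± 0.040, adjusted p = 3.31e-23). VS-4718 gave 432, 396 and 400.1 CPM, BSJ-04-0146 404, 381 and 365, GSK2256098 319.5, 347 and 345 and defactinib 318, 329.8 and 316, all above every DMSO library. The log2 fold changes were 0.72 ± 0.039, 0.62 ± 0.040, 0.44 ± 0.040 and 0.37 ± 0.040. With PROTAC FAK degrader 1 the level was 133, 135 and 140.0 CPM, below every library of every other group (log2 -0.87 ± 0.042, adjusted p = 5.93e-21). IN10018, at 243, 229 and 218 CPM, overlapped DMSO and did not pass (log2 -0.11).

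Timp3 (chr10:86300372-86349506, plus strand) encodes the TIMP that binds the matrix and inhibits ADAMTS proteinases as well as MMPs. It had 69.7, 67.1 and 64.9 CPM in DMSO. It rose to 102, 96.3 and 101 CPM with GSK215, 90.8, 86.2 and 88.6 with BSJ-04-0146 and 87.5, 83.6 and 90.2 with VS-4718 (log2 0.57 ± 0.041, 0.40 ± 0.041 and 0.37 ± 0.040). Defactinib gave 83.7, 80.2 and 82.5 CPM, GSK2256098 75.7, 82.8 and 77.9 and PROTAC FAK degrader 1 77.5, 80.8 and 74.7 (log2 0.29 ± 0.040, 0.23 ± 0.041 and 0.21 ± 0.041). With PROTAC FAK degrader 1 Timp3 was thus higher than in DMSO while Timp1 and Timp2 were lower. IN10018 libraries, at 60.4, 62.0 and 62.2 CPM, were below all DMSO libraries (log2 -0.13 ± 0.042, adjusted p = 0.0369), a call that ended without any 1 of 5 of the 6 libraries (all but DMSO replicate 3) and in 2 other alternatives (adjusted p up to 0.167). Exons of Syn3 on the opposite strand cover 21.3% of the Timp3 exon bases. Syn3 itself was counted with 2 to 19 reads per library, and whether the counting used strand is not given in the sources used here. Timp4 had at most 4 counts in any library.

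**Figure D3:**
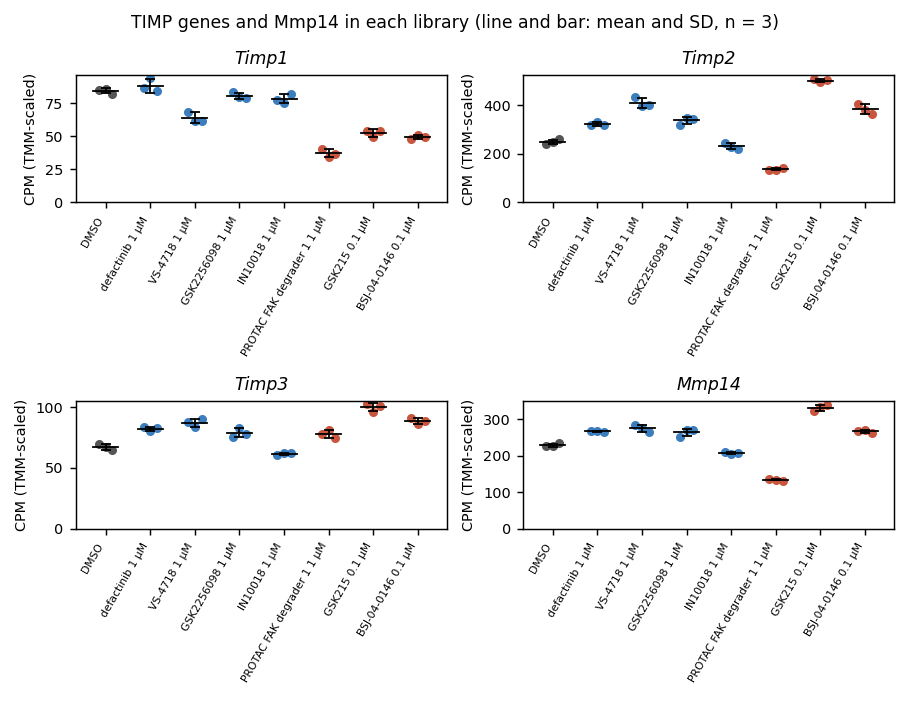
CPM of Timp1, Timp2, Timp3 and Mmp14 in each of the 3 libraries of the 8 groups (points), with the group mean and SD (line and bar). With PROTAC FAK degrader 1 Timp1, Timp2 and Mmp14 were below DMSO and Timp3 above it, whereas with GSK215 only Timp1 of these 4 genes was below DMSO.

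Of the membrane-type MMP genes, Mmp14, Mmp15 and Mmp17 were lower than DMSO with PROTAC FAK degrader 1 and higher with GSK215 and BSJ-04-0146. Mmp14 (chr14:54431612-54445364, plus strand) had 227, 226 and 234 CPM in DMSO. It fell to 135, 134 and 132 CPM with PROTAC FAK degrader 1 (log2 -0.78 ± 0.032) and rose to 323, 334 and 338 with GSK215 (log2 0.54 ± 0.031, adjusted p = 7.27e-23 to 6.98e-18 for the pair). Smaller rises came with VS-4718 (284, 276 and 265 CPM), BSJ-04-0146 (268, 269 and 262), defactinib (267, 266 and 266) and GSK2256098 (251, 270.4 and 269), with log2 fold changes of 0.26, 0.22, 0.22 and 0.20. IN10018 lowered Mmp14 slightly, to 209, 203 and 207 CPM (log2 -0.15 ± 0.031), and this call held in every alternative. For Mmp14 all 7 groups were thus clear of the DMSO libraries, which spanned 226 to 234 CPM.

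Mmp15 (chr8:95352268-95375080, plus strand) encodes a membrane-type MMP and had 3.35, 2.63 and 3.71 CPM in DMSO. It had 6.57, 8.97 and 6.17 CPM with GSK215, 5.36, 6.55 and 9.17 with defactinib, 5.95, 7.26 and 6.74 with BSJ-04-0146, 6.40, 6.33 and 4.79 with VS-4718 and 4.51, 5.70 and 5.42 with GSK2256098. Every library of these 5 groups was above all DMSO libraries, with log2 fold changes of 1.17 ± 0.17, 1.14 ± 0.17, 1.05 ± 0.17, 0.86 ± 0.17 and 0.70 ± 0.17. The call for GSK2256098 ended without DMSO replicate 2 (adjusted p = 0.0604). With PROTAC FAK degrader 1 the level fell to 0.827, 0.991 and 1.37 CPM (log2 -1.61 ± 0.25, adjusted p = 3.75e-07). IN10018 gave 3.23, 3.27 and 2.98 CPM, within the DMSO range.

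Mmp17 (chr5:129584169-129611099, plus strand) encodes a membrane-type MMP held by a lipid anchor. Its level was 1.94, 2.29 and 1.98 CPM in DMSO. It rose to 5.72, 6.02 and 7.68 CPM with BSJ-04-0146, 5.25, 7.48 and 6.47 with GSK215, 5.26, 4.85 and 4.14 with VS-4718 and 3.53, 2.82 and 3.90 with defactinib, and these 4 groups did not overlap DMSO. The log2 fold changes were 1.63 ± 0.17, 1.63 ± 0.17, 1.19 ± 0.17 and 0.72 ± 0.18. The level fell to 0.873, 1.04 and 1.16 CPM with PROTAC FAK degrader 1 (log2 -1.03 ± 0.23, adjusted p = 0.0002). GSK2256098 (2.28, 2.49 and 3.16 CPM) and IN10018 (1.38, 1.70 and 2.30 CPM) did not pass.

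Mmp16 and Mmp25, the other tested membrane-type genes, did not follow that order. Mmp16 ranged from 10.2 to 16.4 CPM over the 24 libraries, and its lowest group was PROTAC FAK degrader 1 at 11.3, 10.6 and 10.2 CPM (log2 -0.46 ± 0.081). Its calls for IN10018 (log2 -0.25) and BSJ-04-0146 (-0.20) rested on libraries that overlapped DMSO, and each ended without any 1 of 4 libraries and in 1 other alternative, with no filter for IN10018 and with library totals alone for BSJ-04-0146 (adjusted p up to 0.205 and 0.331). The libraries were DMSO replicates 1 and 3 with IN10018 replicates 2 and 3 for the first, and DMSO replicates 1 and 3 with BSJ-04-0146 replicates 1 and 3 for the second. Mmp25 was low, at 0.498, 0.451 and 0.288 CPM in DMSO, and had 1.42, 1.56 and 1.37 CPM with PROTAC FAK degrader 1, its highest group. It did not pass the count filter in DMSO alone, so these values are a description.

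Among the secreted MMPs, Mmp11, Mmp19 and Mmp28 were higher with all 3 PROTACs, while Mmp10 was lower with PROTAC FAK degrader 1. Mmp11 (chr10:75923222-75936496, minus strand), known as stromelysin-3 and activated inside the cell by furin, had 22.9, 23.0 and 23.3 CPM in DMSO and 76.0, 74.2 and 73.6 CPM with PROTAC FAK degrader 1. No library of another group came near this level (log2 1.69 ± 0.047, adjusted p = 1.15e-28). GSK215 and BSJ-04-0146 gave 30.2, 31.3 and 32.0 and 31.6, 31.9 and 31.2 CPM (log2 0.44 ± 0.053 and 0.45 ± 0.053). VS-4718 gave 27.6, 28.9 and 26.2 CPM (log2 0.25 ± 0.051), and GSK2256098 25.7, 27.3 and 25.2 (log2 0.18 ± 0.052), a call that ended without GSK2256098 replicate 2 or replicates 1 or 2 of DMSO and without the filter (adjusted p up to 0.132). Defactinib (22.9, 24.2 and 25.4 CPM) and IN10018 (25.4, 24.9 and 25.9 CPM) did not pass. Chchd10 on the opposite strand covers 5.58% of the Mmp11 exon bases, with 12 counts in its highest library.

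Mmp28 (chr11:83440768-83463071, minus strand), which encodes the secreted proteinase epilysin, was higher with all 3 PROTACs. It had 16.7, 18.2 and 15.3 CPM in DMSO, 35.2, 32.6 and 34.6 with PROTAC FAK degrader 1, 31.2, 34.8 and 36.1 with GSK215 and 31.6, 35.0 and 34.3 with BSJ-04-0146. Against DMSO the log2 fold changes were 1.03 ± 0.064, 1.03 ± 0.064 and 1.01 ± 0.065 (adjusted p = 1.8e-17 to 1.78e-16). Defactinib raised it to 24.2, 23.4 and 26.3 CPM (log2 0.56 ± 0.065). The small VS-4718 call (log2 0.18, 18.6, 19.7 and 18.8 CPM) ended without DMSO replicate 1 or 3 or VS-4718 replicate 1 or 2 and in 2 other alternatives (adjusted p up to 0.214). GSK2256098 (18.3, 18.0 and 18.4 CPM) and IN10018 (16.5, 15.6 and 16.2 CPM) did not pass. Another gene, 1700020L24Rik, shares 12.0% of the Mmp28 exon bases on the opposite strand and had 98 to 221 counts per library.

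Mmp19 (chr10:128790910-128800824, plus strand) encodes a secreted MMP with broad matrix substrates. Its level was 1.40, 1.32 and 1.36 CPM in DMSO, 2.76, 2.50 and 3.05 with PROTAC FAK degrader 1, 3.61, 3.42 and 3.31 with GSK215 and 3.65, 3.90 and 3.49 with BSJ-04-0146. All 9 PROTAC libraries were above the DMSO libraries (log2 1.02 ± 0.20, 1.34 ± 0.19 and 1.44 ± 0.19). The kinase inhibitor groups, from 1.06 to 2.30 CPM, did not pass. Tmem198b on the opposite strand shares 22.3% of the Mmp19 exon bases and had 404 to 679 counts per library, and without strand the reads of the 2 genes could not be told apart there.

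Mmp9 (chr2:164940780-164955850, plus strand), a gelatinase that cuts basement membrane collagen, was low in DMSO and highest with GSK215. It had 0.724, 0.639 and 0.494 CPM in DMSO, 3.94, 5.66 and 5.08 with GSK215 and 1.77, 1.73 and 1.77 with BSJ-04-0146. The log2 fold changes of 2.98 ± 0.23 and 1.50 ± 0.26 (adjusted p = 3.19e-14 to 6.34e-06) held in every alternative. PROTAC FAK degrader 1 gave 1.38, 1.15 and 0.788 CPM (log2 0.85 ± 0.28), a call that ended without its replicate 1 (adjusted p = 0.0781). GSK2256098 gave 1.30, 0.978 and 1.18 CPM (log2 0.89 ± 0.27), a call lost without DMSO replicate 2 or 3 or GSK2256098 replicate 1 or 3 and in 2 other alternatives (adjusted p up to 0.12). The remaining inhibitors gave 0.698, 0.591 and 0.787 CPM (defactinib), 0.876, 0.786 and 0.911 (VS-4718) and 0.323, 0.331 and 0.632 (IN10018) and did not pass. Mmp2, the other gelatinase, rose from 7.69, 9.55 and 8.20 CPM in DMSO to 12.9, 15.7 and 12.7 CPM with GSK215 and 13.1, 12.3 and 13.8 with BSJ-04-0146 (log2 0.69 ± 0.10 and 0.61 ± 0.10). It was lower with PROTAC FAK degrader 1 (6.85, 7.04 and 7.77 CPM, log2 -0.24 ± 0.10) and higher with VS-4718 (10.0, 11.2 and 9.08 CPM, log2 0.24 ± 0.10), with libraries that overlapped DMSO in both cases. The first call was lost without DMSO replicate 2 or PROTAC FAK degrader 1 replicate 1 or 2 and in 5 other alternatives (adjusted p up to 0.289). The second was lost without DMSO replicate 1 or 3 or VS-4718 replicate 1 or 2 and in 4 others (adjusted p up to 0.231).

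The 2 stromelysin genes of the chromosome 9 run with a measurable level, Mmp10 and Mmp3, had their highest levels with GSK215 and BSJ-04-0146. Mmp10 (chr9:7502352-7510240, plus strand), whose AP-1 letters are among those printed, had 3.57, 3.42 and 2.47 CPM in DMSO. It rose to 6.11, 5.18 and 6.07 CPM with GSK215, 6.01, 6.34 and 6.56 with BSJ-04-0146 and 4.73, 5.62 and 5.56 with GSK2256098, without overlap with DMSO (log2 0.87 ± 0.15, 1.00 ± 0.15 and 0.75 ± 0.15). With PROTAC FAK degrader 1 it fell to 0.965, 0.469 and 0.840 CPM (log2 -2.03 ± 0.22, adjusted p = 1.76e-10). Defactinib (3.23, 2.50 and 3.82 CPM), VS-4718 (2.78, 3.45 and 3.72) and IN10018 (3.55, 3.41 and 3.11) overlapped DMSO. Mmp3 had only 6 counts over the 3 DMSO libraries, 50 with GSK215 and 39 with BSJ-04-0146. As ratios of summed counts scaled for library size these are 11.2 (95% counting interval 4.81 to 32.0) and 9.06 (3.81 to 26.2), intervals that cover counting error only. Mmp3 did not pass the count filter in DMSO alone and has its highest counts in these groups, so its values stand here as a description. Mmp3 had at most 0.315 CPM in any library of the other groups, and PROTAC FAK degrader 1 gave 1 count in all.

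**Figure D4:**
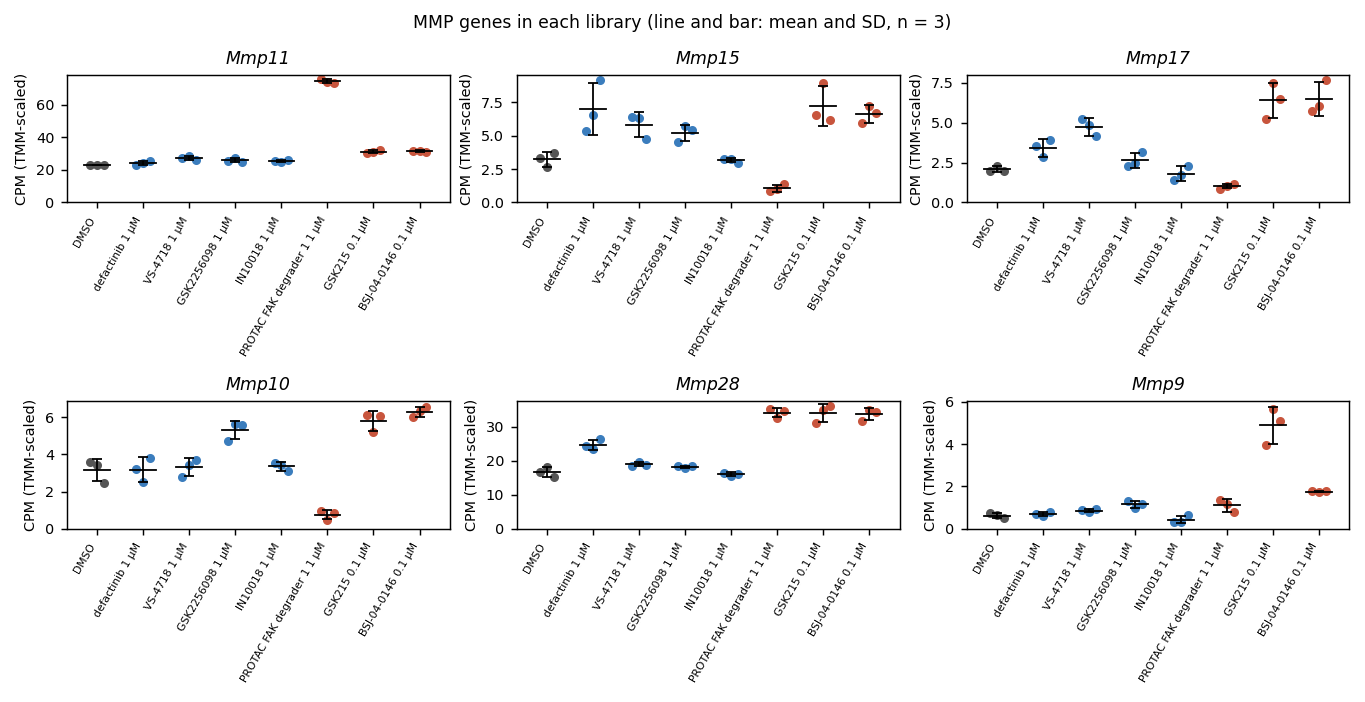
CPM of Mmp11, Mmp15, Mmp17, Mmp10, Mmp28 and Mmp9 in each of the 3 libraries of the 8 groups (points), with the group mean and SD (line and bar). PROTAC FAK degrader 1 stands above DMSO for Mmp11 and Mmp28 and below it for Mmp15, Mmp17 and Mmp10, and GSK215 stands above DMSO for all 6 genes.

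The ADAMTS genes for proteoglycan-cleaving enzymes were led by Adamts4 and Adamts5, the aggrecanases, both higher with GSK215, BSJ-04-0146, VS-4718, defactinib and GSK2256098. Adamts4 (chr1:171250421-171260637, plus strand) had 38.8, 36.0 and 38.8 CPM in DMSO and 207, 211 and 207 CPM with GSK215. BSJ-04-0146 gave 128, 132 and 136 CPM and VS-4718 83.9, 81.5 and 82.4. The log2 fold changes were 2.46 ± 0.043, 1.80 ± 0.044 and 1.13 ± 0.044 (adjusted p = 1.01e-34 to 1.93e-22). Smaller rises came with GSK2256098 (49.8, 47.6 and 49.4 CPM, log2 0.37 ± 0.047) and defactinib (46.6, 46.4 and 51.2 CPM, log2 0.35 ± 0.047). Adamts4 fell to 23.5, 25.3 and 27.3 CPM with PROTAC FAK degrader 1 (log2 -0.58 ± 0.054), and IN10018, at 35.8, 33.3 and 36.4 CPM, did not pass. No group other than IN10018 overlapped DMSO.

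Adamts5 (chr16:85856173-85901828, minus strand) had 14.5, 14.1 and 15.7 CPM in DMSO. It was higher with all compounds but IN10018, at 63.8, 54.8 and 53.9 CPM with GSK215, 46.0, 43.4 and 42.6 with BSJ-04-0146, 31.8, 33.7 and 33.2 with VS-4718, 26.4, 27.3 and 25.4 with defactinib, 23.0, 20.0 and 22.5 with GSK2256098 and 21.0, 20.6 and 18.5 with PROTAC FAK degrader 1. These 6 groups lay wholly above DMSO. In the same order, the log2 fold changes were 1.96 ± 0.065, 1.58 ± 0.067, 1.16 ± 0.067, 0.84 ± 0.069, 0.56 ± 0.072 and 0.44 ± 0.074 (adjusted p = 1.49e-25 to 1.83e-06). IN10018 gave 16.2, 15.1 and 15.4 CPM. Adamts5 therefore rose and Adamts4 fell with PROTAC FAK degrader 1.

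Adamts1 (chr16:85793827-85803113, minus strand), which encodes another proteoglycan-cleaving enzyme, is the neighbour of Adamts5 on chromosome 16, 53.1 kb away on the same strand, and it moved the other way with the PROTACs. It had 75.2, 77.5 and 78.4 CPM in DMSO, 28.5, 30.9 and 27.9 with PROTAC FAK degrader 1, 49.6, 47.2 and 50.6 with BSJ-04-0146 and 55.7, 58.5 and 54.0 with GSK215. The PROTAC groups were all below DMSO (log2 -1.41 ± 0.044, -0.65 ± 0.042 and -0.46 ± 0.041, adjusted p = 7.66e-27 to 1.61e-12). IN10018 and VS-4718 gave 71.1, 68.3 and 70.3 and 73.5, 72.0 and 69.9 CPM, small decreases (log2 -0.14 ± 0.039 and -0.10 ± 0.038) whose calls were not stable. The IN10018 call ended without DMSO replicate 3 or IN10018 replicate 2 (adjusted p up to 0.0572). The VS-4718 call ended without DMSO replicate 2 or 3 or VS-4718 replicate 2 or 3 and in 2 other alternatives (adjusted p up to 0.191). Defactinib (74.9, 76.2 and 77.9 CPM) and GSK2256098 (74.1, 73.1 and 75.5 CPM) did not pass.

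Adamts8 (chr9:30942562-30963838, plus strand) had 3.44, 4.29 and 4.53 CPM in DMSO and fell to 0.689, 0.626 and 0.945 CPM with PROTAC FAK degrader 1 (log2 -2.44 ± 0.19, adjusted p = 2.82e-14). With GSK215 it rose to 6.70, 7.64 and 7.45 CPM (log2 0.83 ± 0.12), whereas BSJ-04-0146, at 3.42, 3.36 and 4.02 CPM, overlapped DMSO (log2 -0.19). GSK2256098 and VS-4718 gave 6.21, 5.87 and 5.74 and 6.40, 5.59 and 5.32 CPM (log2 0.53 ± 0.12 and 0.49 ± 0.12). The defactinib call (5.15, 6.28 and 4.60 CPM, log2 0.37 ± 0.13) ended without defactinib replicate 2 or DMSO replicate 1 and without the filter (adjusted p up to 0.226). IN10018 gave 4.15, 4.36 and 3.70 CPM. The antisense gene Gm29724 shares 10.6% of the Adamts8 exon bases, with 13 counts in its highest library.

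Adamts20 (chr15:94270163-94465418, minus strand) had 5.70, 6.77 and 6.63 CPM in DMSO, 2.02, 2.09 and 2.73 with PROTAC FAK degrader 1, 9.52, 9.99 and 9.58 with GSK215 and 7.74, 8.12 and 8.62 with VS-4718. The log2 fold changes were -1.49 ± 0.13, 0.60 ± 0.10 and 0.35 ± 0.095 (adjusted p = 1.82e-13 to 0.00265), each without overlap. BSJ-04-0146, at 6.66, 7.59 and 8.45 CPM, overlapped DMSO, and its call (log2 0.24 ± 0.10) ended without DMSO replicate 1 or BSJ-04-0146 replicate 2 or 3 and in 3 other alternatives (adjusted p up to 0.249). Defactinib (6.76, 6.69 and 6.22 CPM), GSK2256098 (6.70, 6.97 and 7.23) and IN10018 (6.46, 6.68 and 6.50) did not pass. Adamts9, whose product also cleaves versican, had 38.1, 39.9 and 38.9 CPM in DMSO, 27.8, 28.5 and 28.5 with PROTAC FAK degrader 1 and 53.1, 55.3 and 55.3 with GSK215 (log2 -0.47 ± 0.048 and 0.49 ± 0.044).

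Adamts2, Adamts3 and Adamts14 encode the procollagen N-proteinases. Adamts14 had 127, 122 and 122 CPM in DMSO, was higher with GSK215 (145, 142 and 144 CPM, log2 0.22 ± 0.035) and lower with VS-4718 (112, 107 and 106 CPM, log2 -0.19 ± 0.035), and did not pass with the other 5 compounds. Adamts2 had 2.71, 2.67 and 2.55 CPM in DMSO and rose to 4.73, 5.88 and 5.13 CPM with GSK215 and 3.71, 4.37 and 4.05 with defactinib (log2 0.99 ± 0.14 and 0.61 ± 0.14). Its VS-4718 call (log2 0.44) ended without VS-4718 replicate 2 (adjusted p = 0.0693). Adamts3 had no count. Adamts7, whose product cleaves cartilage oligomeric matrix protein, had 65.0, 68.6 and 62.3 CPM in DMSO and rose to 117, 121 and 124 CPM with GSK215, 110.3, 114 and 120.3 with BSJ-04-0146 and 106, 104 and 97.6 with VS-4718 (log2 0.89 ± 0.041, 0.81 ± 0.041 and 0.65 ± 0.040). Adamts10, linked to fibrillin microfibrils, was higher with GSK215 and BSJ-04-0146 (log2 0.53 ± 0.056 and 0.43 ± 0.057) and lower with PROTAC FAK degrader 1 (-0.24 ± 0.060). Adamts6 was higher with PROTAC FAK degrader 1, GSK215 and BSJ-04-0146 (log2 0.36 ± 0.084, 0.25 ± 0.087 and 0.21 ± 0.088). Its GSK215 call ended without GSK215 replicate 2 (adjusted p = 0.245), and its BSJ-04-0146 call without any 1 of the DMSO libraries or BSJ-04-0146 replicate 1 or 3 and in 2 other alternatives (adjusted p up to 0.238). Adamts17 had 26 counts with GSK215 against 7 in DMSO, a ratio of 5.00 (95% counting interval 2.11 to 13.6). It did not pass the count filter in DMSO alone, and its call ended without GSK215 replicate 2 (adjusted p = 0.0543).

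Of the ADAMTSL genes, Adamtsl3, Adamtsl4 and Adamtsl5 passed the count filter in DMSO alone, and all 3 were higher with GSK215. Adamtsl3 (chr7:82335694-82614450, plus strand) had 5.70, 4.59 and 5.60 CPM in DMSO and 11.6, 11.5 and 9.28 CPM with GSK215 (log2 1.02 ± 0.12, adjusted p = 2.76e-09), without overlap. It had 6.78, 7.48 and 6.62 CPM with BSJ-04-0146 and 4.61, 3.71 and 3.84 with VS-4718, and both calls (log2 0.40 ± 0.13 and -0.38 ± 0.13) ended when 1 of several libraries was left out. For BSJ-04-0146 these were its replicate 2 or DMSO replicate 2 (adjusted p up to 0.0741), and for VS-4718 they were DMSO replicate 1 or 3 or VS-4718 replicate 2 or 3 (adjusted p up to 0.0972). Levels were 6.11, 5.96 and 6.89 CPM with defactinib, 4.60, 4.12 and 5.33 with GSK2256098, 4.52, 4.78 and 4.60 with IN10018 and 4.13, 3.34 and 5.41 with PROTAC FAK degrader 1, none past the threshold. Adamtsl5 rose with BSJ-04-0146, from 10.6, 10.4 and 11.5 to 16.0, 19.9 and 19.1 CPM (log2 0.76 ± 0.088). For GSK215 its call (log2 0.28) and that of Adamtsl4 (0.28) both ended without GSK215 replicate 3 (adjusted p = 0.0552 and 0.0636). Adamtsl1, which did not pass that filter, had 0.362, 0.338 and 0.371 CPM in DMSO and 0.657, 1.07 and 0.987 CPM with GSK215, given as a description.

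**Figure D5:**
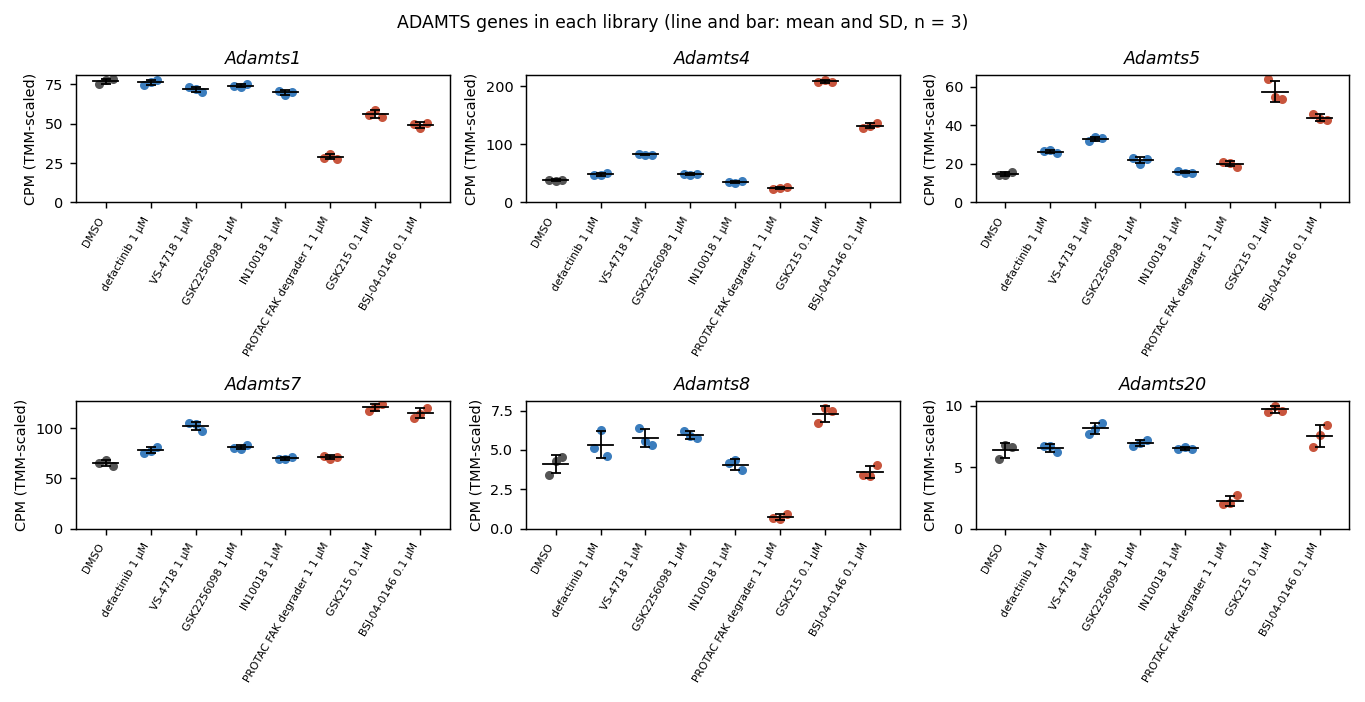
CPM of Adamts1, Adamts4, Adamts5, Adamts7, Adamts8 and Adamts20 in each of the 3 libraries of the 8 groups (points), with the group mean and SD (line and bar). Adamts4 reaches its highest level with GSK215, and PROTAC FAK degrader 1 is the lowest group for Adamts1, Adamts4, Adamts8 and Adamts20 but not for Adamts5 or Adamts7.

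At matched doses 3 pairs of compounds were compared directly in the same model. With both at 1 µM, PROTAC FAK degrader 1 and defactinib differed in 25 of 32 members, 6 higher and 19 lower with the PROTAC (78.1% of the members, against 68.9% of all genes tested). Here 18.8% of the members were higher, against 34.9% of all genes, and 59.4% were lower, against 34.0%, and 12 differed at least 2-fold (37.5% of the members, against 16.2% of all genes), or 35.7% against 14.1% among the genes that passed the filter in DMSO alone. Mmp15 differed by log2 -2.74 ± 0.22 and Mmp10 by -2.06 ± 0.22. Timp2 and Timp1 were lower with the PROTAC by log2 -1.24 ± 0.042 and -1.23 ± 0.053, while Timp3 did not differ past the threshold, at -0.08 (95% interval -0.17 to 0.01). Mmp11 was higher with the PROTAC (log2 1.63 ± 0.047), as were Mmp19 (1.17 ± 0.20) and Mmp28 (0.47 ± 0.060). For the low gene Mmp3 the summed counts were 1 with the PROTAC and 14 with defactinib, a ratio of 0.0837 (95% counting interval 0.00198 to 0.550), and this call ended without defactinib replicate 3 and with limma-trend (adjusted p up to 0.158).

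VS-4718 and defactinib, both kinase inhibitors at 1 µM, differed in 15 members, 9 higher and 6 lower with VS-4718 (46.9% of the members, against 34.0% of all genes tested). In this pair 28.1% of the members were higher, against 18.0% of all genes, and 18.8% were lower, against 16.0%, and none differed 2-fold (0% of the members, against 1.14% of all genes). Adamts4 was higher with VS-4718 (log2 0.78 ± 0.043), as were Adamts7 (0.39 ± 0.040), Timp2 (0.35 ± 0.039) and Adamts5 (0.32 ± 0.061). Timp1 (-0.46 ± 0.048), Mmp28 (-0.38 ± 0.063), Adamts9 (-0.34 ± 0.044) and Adamtsl3 (-0.64 ± 0.13) were lower. Mmp14 did not pass, at 0.04 (95% interval -0.02 to 0.11), nor did Mmp15, at -0.28 (95% interval -0.60 to 0.04). The calls of Mmp17 (0.47) and Mmp19 (0.63) ended when 1 of several libraries was left out (adjusted p up to 0.119 and 0.0727), namely defactinib replicate 2 or VS-4718 replicate 1 for Mmp17 and defactinib replicate 2 or 3 or VS-4718 replicate 2 for Mmp19.

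GSK215 and BSJ-04-0146, both PROTACs at 0.1 µM, differed in 14 members, 13 of them higher with GSK215 (43.8% of the members, against 22.5% of all genes tested). By direction 40.6% of the members were higher, against 9.88% of all genes, and 3.12% were lower, against 12.6%, and 2, Mmp9 and Adamts8, differed at least 2-fold (6.25% of the members, against 0.473% of all genes). Their log2 differences were 1.48 ± 0.21 and 1.02 ± 0.14. Adamts2 (0.90 ± 0.15), Adamts4 (0.66 ± 0.038), Adamtsl3 (0.62 ± 0.12), Timp2 (0.38 ± 0.039) and Mmp14 (0.32 ± 0.031) were also higher with GSK215, and Adamtsl5 was lower (-0.49 ± 0.090). Several members that rose with both did not differ between them at the threshold. These include Mmp17 at -0.004 (95% interval -0.32 to 0.31), Mmp28 at 0.02 (95% interval -0.11 to 0.15), Mmp11 at -0.02 (95% interval -0.13 to 0.10) and Mmp15 at 0.12 (95% interval -0.22 to 0.46), and Timp1, which fell with both, stood at 0.08 (95% interval -0.04 to 0.20).

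PROTAC FAK degrader 1 was used at 1 µM and the other PROTACs at 0.1 µM, so no test between them was made. Side by side, the mean levels (± SD, n = 3) of Mmp10 were 0.758 ± 0.258 CPM with PROTAC FAK degrader 1, 5.79 ± 0.524 with GSK215 and 6.30 ± 0.276 with BSJ-04-0146. Those of Adamts4 were 25.4 ± 1.87, 208 ± 2.25 and 132 ± 4.24 CPM, and those of Mmp11 74.6 ± 1.25, 31.2 ± 0.924 and 31.6 ± 0.370 CPM.

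Genes whose products activate, inhibit or clear these enzymes, or are cut by them, were taken from a list of 53, of which 34 were tested. Against DMSO, 18 were higher and 7 lower with GSK215 (52.9% and 20.6%, against 27.4% and 27.2% of all genes), 16 and 10 with BSJ-04-0146 (47.1% and 29.4%, against 27.7% and 26.9%), and 6 and 21 with PROTAC FAK degrader 1 (17.6% and 61.8%, against 34.1% and 32.7%). VS-4718 gave 11 and 7 (32.4% and 20.6%, against 20.4% and 18.9%), defactinib 16 and 1 (47.1% and 2.94%, against 11.4% and 11.0%), and GSK2256098 9 and 4 (26.5% and 11.8%, against 6.36% and 6.09%). IN10018 gave 0 and 7 (0% and 20.6%, against 6.44% and 6.85%), where edgeR had 1 higher at an unadjusted p under 0.05 and DESeq2 and limma-trend had 0. The shares lower with BSJ-04-0146 and VS-4718 are near those of all genes. In plasminogen activation, a route that activates MMP precursors, Plau, the urokinase gene, averaged 17.4 CPM in DMSO and 8.34 with PROTAC FAK degrader 1 (log2 -1.07 ± 0.091), and its receptor gene Plaur 43.4 and 12.9 CPM (-1.75 ± 0.059). The mean of Plaur was also below DMSO with GSK215 (23.0 CPM) and BSJ-04-0146 (24.4 CPM). Of the 6 tested genes of this route, 2 were higher and 4 lower with PROTAC FAK degrader 1 (33.3% and 66.7%, against 34.1% and 32.7% of all genes). The same counts held for BSJ-04-0146 (against 27.7% and 26.9%), and GSK215 gave 3 and 3 (50% and 50%, against 27.4% and 27.2%). Serpine2, which encodes an inhibitor of urokinase, rose with GSK215 and BSJ-04-0146 (log2 1.54 ± 0.16 and 1.65 ± 0.16). Furin, the convertase that activates Mmp11 and membrane-type MMP precursors, was higher with GSK215 (0.38 ± 0.040) and lower with PROTAC FAK degrader 1 (-0.38 ± 0.041). Reck, a membrane-anchored MMP inhibitor, was higher with PROTAC FAK degrader 1 (1.29 ± 0.15), GSK215 (0.94 ± 0.16) and BSJ-04-0146 (0.74 ± 0.17). Lrp1, the receptor that clears MMPs and TIMPs, was higher with GSK215 (0.50 ± 0.049) and lower with PROTAC FAK degrader 1 (-0.33 ± 0.049). Bmp1, a procollagen C-proteinase, followed the same directions (0.78 ± 0.038 and -0.54 ± 0.040). It is 1 of 3 tested genes for astacin proteinases and their enhancers, of which 1 was higher and 1 lower with GSK215 (33.3% each, against 27.4% and 27.2%). BSJ-04-0146 gave 1 and 2 (against 27.7% and 26.9%), and PROTAC FAK degrader 1 gave 0 and 3 (against 34.1% and 32.7%). Pcolce2, of the same list, averaged 49.3 CPM in DMSO, 35.2 with GSK215 and 34.3 with BSJ-04-0146. Among the lecticans and link proteins that ADAMTS enzymes cut or meet, 3 were tested, and Vcan, which encodes versican, did not pass with any compound against DMSO. Hapln4, a link protein gene, averaged 35.8 CPM in DMSO and was lower with PROTAC FAK degrader 1 (23.7 CPM, log2 -0.59 ± 0.047) and IN10018 (-0.19), and higher with GSK215 (0.29), defactinib (0.26) and BSJ-04-0146 (0.15). Bcan, which encodes brevican, was low and rose from 0.249 to 0.975 CPM with PROTAC FAK degrader 1 (log2 1.96 ± 0.43), its only call against DMSO.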

How the data were processed

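The authors deposited raw counts, given as unnormalized whole-number reads for 49315 genes in 24 libraries. The labels describe poly(A)-selected libraries made and sequenced by a commercial service. The submitters' processing notes name Trimmomatic 0.36, STAR 2.5.2b, featureCounts of Subread 1.5.2 and GRCm38. The annotation release and strand setting are not given in the sources used here. No replicate column was left out.

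Differences were tested with edgeR 4.0.16 in R 4.3.3, using filterByExpr at a minimum count of 10, TMM scaling and the quasi-likelihood F test. The model held 1 coefficient for each of 8 groups and left 16 degrees of freedom. Two-sided p-values received Benjamini-Hochberg adjustment across all 16070 tested genes. CPM values use the TMM scale, and each standard error follows from the fold change and its F statistic. Precision is limited by the depth of 14472462 to 27449516 counts per library and by n = 3, and the PROTAC groups were the shallower ones. Counting intervals and the floor of 3 counts cover counting error only.

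Members named with all their values were the tested TIMP genes and the members with a call against DMSO of at least 2-fold and a mean of at least 1 CPM, 16 genes. Other members named beside them were picked with their values in view. The members, gene lists and rules were chosen with earlier results of these data known. Alternatives were library totals in place of TMM, DESeq2 1.42.0, limma-trend of limma 3.58.1 on log2(CPM + 4), no filter, a replicate block, only the 6 libraries of a comparison, and leaving out each library. On simulated counts for GSK215 against DMSO over 16070 genes, 90% of 50 genes raised 2-fold and 74% of 50 lowered 2-fold were recovered, as were 58% of 50 raised by 0.5 and 70% of 50 lowered by 0.5 on the log2 scale. Gene positions and exon lengths are those of GENCODE M21 (GRCm38), which held all 51 identifiers. A few results on genes outside the members are not reported here.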

Additional observations from a re-analysis of the deposited data

How the results depend on the processing

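Of 320 results (32 members in 10 comparisons), 182 passed the threshold, and 142 of these passed in every alternative run. The other 40 were lost in at least 1, and 19 that had not passed did so in at least 1. No called result changed direction. DESeq2 gave no adjusted p for 29 of the 320, which stay out of these counts for it. With library totals alone the median of all genes moved from 0.021 to 0.14 for GSK215 and from 0.018 to 0.13 for BSJ-04-0146 (log2), so changes there are relative to such a shift. Leaving out 1 library gave 28 to 30 members past the threshold for GSK215, 20 to 24 for BSJ-04-0146, 21 to 25 for PROTAC FAK degrader 1, 15 to 19 for VS-4718, 11 to 13 for defactinib, 8 to 11 for GSK2256098 and 1 to 5 for IN10018. In the direct comparisons it gave 23 to 24 for PROTAC FAK degrader 1 against defactinib, 12 to 15 for VS-4718 against defactinib and 13 to 14 for GSK215 against BSJ-04-0146. The replicate numbers did not pair the samples (correlations of deviations from -0.21 to 0.15 over 30 pairs), and a replicate block changed no call, with 30 members again past the threshold for GSK215. Depth limits Mmp3, Adamts17, Mmp25 and Adamtsl1, which had few counts in DMSO.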
